A study of Mus musculus with 15 samples.

Results

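The 10 genes described here belong to the Notch pathway and were followed through the development of the mouse secondary palate, the roof of the mouth behind the incisors. They were the 4 ligands *Jag1*, *Jag2*, *Dll1* and *Dll4*, the 2 receptors *Notch1* and *Notch2*, and the 4 target genes *Hes1*, *Hey1*, *Hey2* and *Heyl*. They were chosen by name from the 54232 genes of the count table, all 10 were found there, and all 10 were among the 22151 genes that passed the filter on low counts. Messenger RNA was measured by bulk RNA sequencing in palates of wild-type mice before birth at E13.5, E14.5, E15.5 and E16.5, where E counts embryonic days, and on the day of birth (P0). The labels name no treatment, and no other genotype was used here. Each of the 5 stages had 3 libraries, and a library pooled the palates of 3 embryos. The labels do not say whether pools came from separate litters, so p-values measure the spread between pools. They name no strain.

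Notch is a receptor that signals between neighbouring cells. A ligand of the Jagged or Delta family on one cell binds it, the metalloprotease ADAM10 and then the gamma-secretase complex cut it, and the released intracellular part enters the nucleus. There it joins the DNA-binding protein RBPJ and a Mastermind coactivator and switches on genes of the Hes and Hey families, which encode repressors. Fringe enzymes add sugars to the receptor and change which ligands activate it. In the palate, Jag2 in the epithelium is known to keep the shelves from sticking to the tongue, and mice that lack it are born with cleft palate. Elsewhere the pathway sorts neurons from neural progenitors and patterns arteries and their muscle coat.

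The 3 promoters below are shown because they hold the letters that RBPJ is known to bind and belong to genes of the results: *Hey2*, the only one of the 7 members in the promoter table with such letters, the neural progenitor target *Hes5* and the Fringe gene *Lfng*. Capitals mark the RBPJ core TGGGAA, or TTCCCA where it lies on the opposite strand. The sequences are from RefSeq on GRCm38.p6, 5′ to 3′ on the gene's strand, and begin 250 bases before the RefSeq start. That start lies inside the gene as the count table draws it for *Hey2* and *Lfng*.
*Hey2*, chr10:30842774-30843033, minus strand: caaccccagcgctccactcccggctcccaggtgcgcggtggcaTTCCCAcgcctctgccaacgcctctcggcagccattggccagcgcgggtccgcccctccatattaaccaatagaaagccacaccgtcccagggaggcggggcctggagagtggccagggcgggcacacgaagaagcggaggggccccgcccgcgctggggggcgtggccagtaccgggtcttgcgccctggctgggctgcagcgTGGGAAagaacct
*Hes5*, chr4:154960673-154960932, plus strand: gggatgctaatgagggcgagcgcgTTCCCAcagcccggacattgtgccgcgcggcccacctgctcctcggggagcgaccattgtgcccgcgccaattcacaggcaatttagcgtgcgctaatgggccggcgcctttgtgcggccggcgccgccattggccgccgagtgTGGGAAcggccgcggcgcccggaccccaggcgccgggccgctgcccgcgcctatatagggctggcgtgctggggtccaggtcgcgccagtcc
*Lfng*, chr5:140607091-140607340, plus strand: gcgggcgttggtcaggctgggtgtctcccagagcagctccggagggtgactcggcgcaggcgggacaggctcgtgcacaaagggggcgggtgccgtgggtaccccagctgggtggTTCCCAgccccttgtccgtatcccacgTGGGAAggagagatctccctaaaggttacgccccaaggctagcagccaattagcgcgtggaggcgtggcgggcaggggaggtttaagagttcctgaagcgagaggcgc
The *Hey2* cores begin at -207 and -3 from the start, those of *Hes5* at -226 and -82, and those of *Lfng* at -135 and -108. In windows from 250 bases before to 50 bases after the start, 1 of the 7 members with an entry held the core on either strand, and *Hes1*, *Hey1* and *Heyl* had none in the table. The core occurred in 25.6% of all 32851 windows of this length and in 13 of 48 windows of the other pathway genes. Its presence in these windows, which belong to 12 of 36 genes, is a description and marks no binding site. The longer motif GTGGGAA, which contains the core, was in 6.38% of all windows.

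Library totals were 21.5 to 69.02 M counts (M, 1e6), and 3 counts, taken as the detection floor, came to 0.0435 to 0.140 CPM. Depth differed by stage, with totals of 63.7 to 68.4 M at E13.5 and 21.5 to 41.2 M at P0. The part of depth in the contrasts was not tested. Levels are given as counts per 1e6 counts of a library (CPM), on totals scaled with edgeR's TMM method, and levels are compared between genes only as CPM per kilobase of exon (RPKM). The exon length was that of all annotated exons of a gene merged, so orders and shares between genes depend on the annotation. The labelled tissue carried its markers: the 7 palate mesenchyme markers (*Osr2*, *Pax9*, *Prrx1*, *Twist1*, *Shox2*, *Msx1* and *Tbx22*) were detected in every library, with summed levels of 557 to 902 CPM at E13.5 and 211 to 338 CPM at P0. Libraries of the early stages differed in neural RNA. The summed level of 8 neural progenitor and neuron markers was 567 to 2219.8 CPM at E13.5 and 1585 to 3645 CPM at E14.5, against 445 to 997 CPM at the 3 later stages. E13.5 replicate 2 and E14.5 replicate 1 were the highest of their stages, and results that rest on them are given with and without them. The summed level of 3 markers of choroid plexus, a brain tissue, and trunk was 1363, 27.8 and 696 CPM in the E14.5 libraries, 367 and 98.7 CPM in P0 replicates 2 and 3, 91.99 CPM in E13.5 replicate 3, and 0.824 to 7.36 CPM in the other 9. Transcripts of 4 Y-linked genes summed to 0.151 to 0.332 CPM in the 3 E16.5 libraries and to 0.337 to 0.457 CPM in E13.5 replicate 1, E15.5 replicate 1 and P0 replicate 2. The other 9 libraries held 55.3 to 190.3 CPM. E16.5 was the only stage without such a library, and the part of sex in contrasts with E16.5 was not tested.

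Over the whole course both receptors fell, the ligands *Jag1* and *Dll1* fell, the ligand *Jag2* rose, and 0 of the 4 targets passed the edgeR test between the first and the last stage (1 had an unadjusted p under 0.05, and *Hey2* passed by DESeq2). From E13.5 to P0 *Notch1* was 1.78-fold lower and *Notch2* 1.80-fold lower, *Dll1* 2.47-fold lower, *Jag1* 1.37-fold lower and *Jag2* 1.37-fold higher. These are 5 of 10 members, in a contrast where 56.6% of all tested genes passed (edgeR's quasi-likelihood test, Benjamini-Hochberg adjusted p under 0.05), 29.8% higher and 26.8% lower, so their number is close to the background and says nothing about Notch genes as a group. Of the 6 edgeR fits that left out 1 library of this contrast, *Notch1* and *Notch2* passed in 6, *Jag1* and *Jag2* in 5 and *Dll1* in 2. The *Dll1* libraries of E13.5 and P0 overlapped. The median log2 fold change was -0.36 over the 10 members and 0.03 over all tested genes. In the test over all 5 stages 6 of 10 members changed, against 59.1% of all genes, and *Heyl* was the target among them.

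**Figure D1:**
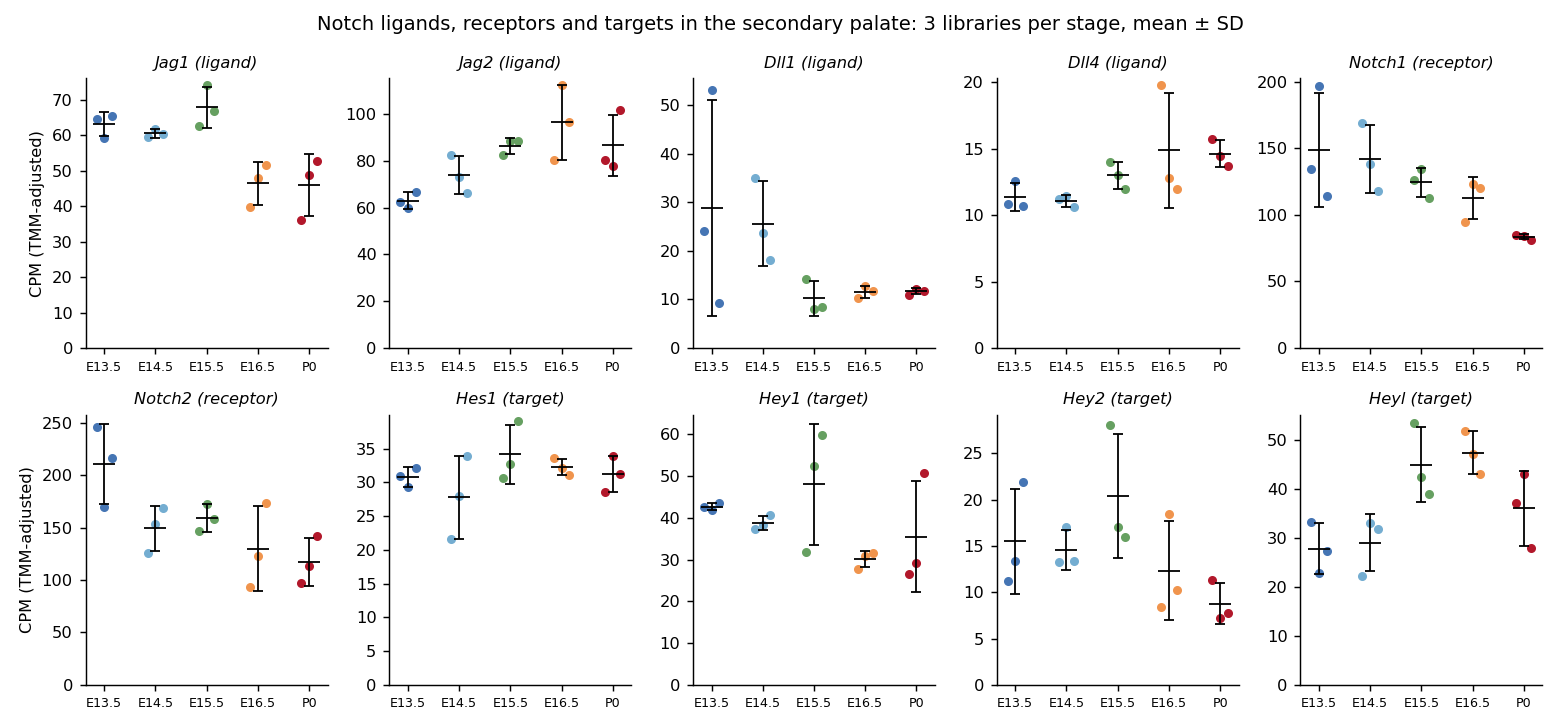
Levels of the 10 genes in TMM-adjusted CPM (vertical axes from 0) at the 5 stages (horizontal axis). Points are the 3 libraries of a stage, and bars the mean ± SD. *Notch1* and *Jag1* have their lowest means at P0, *Heyl* is highest at E15.5 and E16.5, and the 3 *Dll1* libraries of E13.5 span 9.37 to 53.1 CPM.

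Between neighbouring stages few members passed. From E13.5 to E14.5 0 of 10 passed by edgeR's quasi-likelihood test, with 0.00903% of all genes passing by edgeR. At that step 1 member had an unadjusted p under 0.05 and 0 passed by DESeq2, where 1000 of the 22151 genes passed. The libraries of 2 members, *Notch2* and *Hey1*, were lower without overlap, against 29.2% of all genes whose libraries were apart. From E14.5 to E15.5, when the shelves have met and fuse, 1 of 10 passed, *Heyl*, where 26.1% of all genes did, 12.7% higher and 13.4% lower. That step separated the libraries of 5 members without overlap, 4 higher and 1 lower, and of 51.3% of all genes, 24% higher and 27.2% lower. From E15.5 to E16.5 0 passed by edgeR, 2 had an unadjusted p under 0.05 and 1 passed by DESeq2, with 1.41% of all genes passing by edgeR. *Jag1* and *Hey1* were the 2 members whose libraries did not overlap there, both lower, against 31.2% of all genes. From E16.5 to P0 0 passed by edgeR, 1 had an unadjusted p under 0.05 and 0 passed by DESeq2, with 0.352% of all genes passing by edgeR. *Notch1* and *Heyl* were the 2 without overlap, both lower, against 11.6% of all genes. Of the 22151 genes, 3538, 4830 and 2602 had an unadjusted p under 0.05 at the steps to E14.5, E16.5 and P0. DESeq2 passed 2094 genes at the step to E16.5 and 663 at the step to P0. The contrasts share libraries with one another, so their fold changes are not independent.

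**Figure D2:**
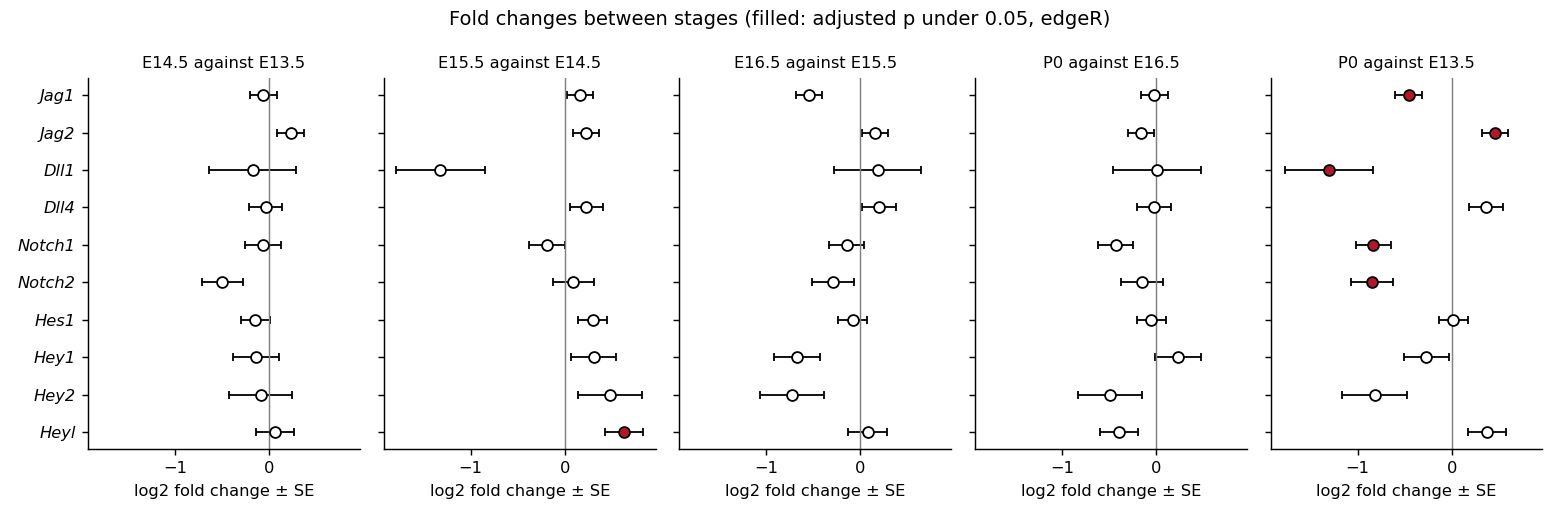
Log2 fold change ± SE (horizontal axis) of each gene (vertical axis) in the 5 contrasts from edgeR. Filled points have an adjusted p under 0.05. *Heyl* is the filled point of E15.5 against E14.5, and *Jag1*, *Jag2*, *Dll1*, *Notch1* and *Notch2* are filled in P0 against E13.5.

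Per kilobase *Notch2* or *Hes1* led the order of levels at every stage, and *Dll4*, *Dll1* or *Hey2* closed it. At E13.5 *Notch2* was highest at 19.5 ± 3.57 RPKM (SD, n = 3), followed by *Hes1* at 15.1 ± 0.720, *Hey1* at 13.1 ± 0.272 and *Jag1* at 10.8 ± 0.583. *Notch1* at 10.4 ± 3.01, *Jag2* at 9.05 ± 0.503, *Dll1* at 6.84 ± 5.28, *Heyl* at 5.44 ± 1.02, *Hey2* at 3.37 ± 1.23 and *Dll4* at 2.95 ± 0.271 RPKM came next. Only *Hes1* against *Hey1* and *Hey1* against *Jag1* were neighbours in this order whose libraries did not overlap. At P0 *Hes1* led at 15.3 ± 1.32 RPKM, *Jag2* was second at 12.4 ± 1.86 and *Hey2* was last at 1.91 ± 0.479. The neighbours without overlap there were *Notch1* at 5.86 ± 0.129 against *Dll4* at 3.80 ± 0.260, *Dll4* against *Dll1* at 2.77 ± 0.146, and *Dll1* against *Hey2*. *Jag2* held rank 6 at E13.5, rank 4 at E14.5 and E15.5, and rank 2 at E16.5 and P0, each time overlapping the gene before it or after it.

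*Jag1* (ENSMUSG00000027276.7, chr2:137081456-137116644, minus strand) encodes the ligand whose mutations cause Alagille syndrome. Its level was 64.6, 59.2 and 65.5 CPM in the E13.5 libraries, 59.4, 61.8 and 60.5 at E14.5, and 62.7, 74.2 and 66.9 at E15.5. It was 39.8, 48.1 and 51.6 CPM at E16.5 and 36.1, 49.0 and 52.9 at P0. Every library of the last 2 stages lay below every library of the first 3. The fall from E13.5 to P0 passed (log2 fold change -0.46, SE 0.14, adjusted p = 0.0145), but not without P0 replicate 1 (-0.27, edgeR adjusted p = 0.0896) or in a fit of the 6 libraries of the contrast alone (adjusted p = 0.0818). The step from E15.5 to E16.5 was -0.55 and missed the threshold (edgeR adjusted p = 0.0712, DESeq2 adjusted p = 0.0121).

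*Jag2* (ENSMUSG00000002799.6, chr12:112907819-112929776, minus strand, overlapping the microRNA gene *Mir6941* on the same strand) moved the other way. It was 62.4, 59.9 and 66.8 CPM at E13.5, 82.3, 73.0 and 66.1 at E14.5, and 82.4, 88.3 and 88.6 at E15.5. The E16.5 libraries held 80.5, 112.5 and 96.5 CPM and the P0 libraries 80.3, 78.0 and 101.5. All libraries from E15.5 onwards were above all E13.5 libraries. The rise from E13.5 to P0 was 0.46 on the log2 scale (SE 0.14, edgeR adjusted p = 0.0136), and without E13.5 replicate 2 it was 0.41 with an adjusted p of 0.0538. Over 5 stages *Jag2* passed (edgeR adjusted p = 0.0150), but not without E13.5 replicate 1 (0.0537) or 2 (0.0567). Markers of epithelium, where *Jag2* is known to be expressed in the palate, were higher at P0 than at E13.5 in 6 of 8 genes. Over all tested genes 29.8% were higher. The epithelial markers had summed levels of 275 to 637 CPM at E13.5 and 1227 to 3449 CPM at P0. In bulk tissue a change in the number of cells of a type and a change in RNA per cell cannot be told apart, and the part of epithelium in the *Jag2* result was not tested.

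The balance of the Jagged ligands, taken within each library as the ratio of *Jag2* to *Jag1* per kilobase, does not depend on scaling between libraries. It was 0.807, 0.846 and 0.853 at E13.5, so *Jag1* exceeded *Jag2* per kilobase in all 3 libraries. Which side of 1 the ratio takes there rests on the exon lengths used, 5827 bases for *Jag1* and 6965 for *Jag2*. Before division by length, *Jag1* and *Jag2* had 4510 and 4352, 4206 and 4251, and 4411 and 4497 counts. At E14.5 the ratio was 1.16, 0.989 and 0.914, and at E15.5 1.10, 0.996 and 1.11, close to equal levels. At E16.5 it was 1.69, 1.96 and 1.57 and at P0 1.86, 1.33 and 1.61, so *Jag2* exceeded *Jag1* in all 6. The ratio differed from E13.5 to P0 by 0.92 on the log2 scale and from E15.5 to E16.5 by 0.70, in both cases without overlap. The step from E13.5 to E14.5 was 0.28, also without overlap. The two-sided exact permutation p was 0.1 for each of the 3, the smallest that 3 against 3 libraries allow, and 0.333 after Benjamini-Hochberg adjustment over the 10 comparisons of this ratio and that of *Notch2* to *Notch1*, so none can reach 0.05.

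**Figure D3:**
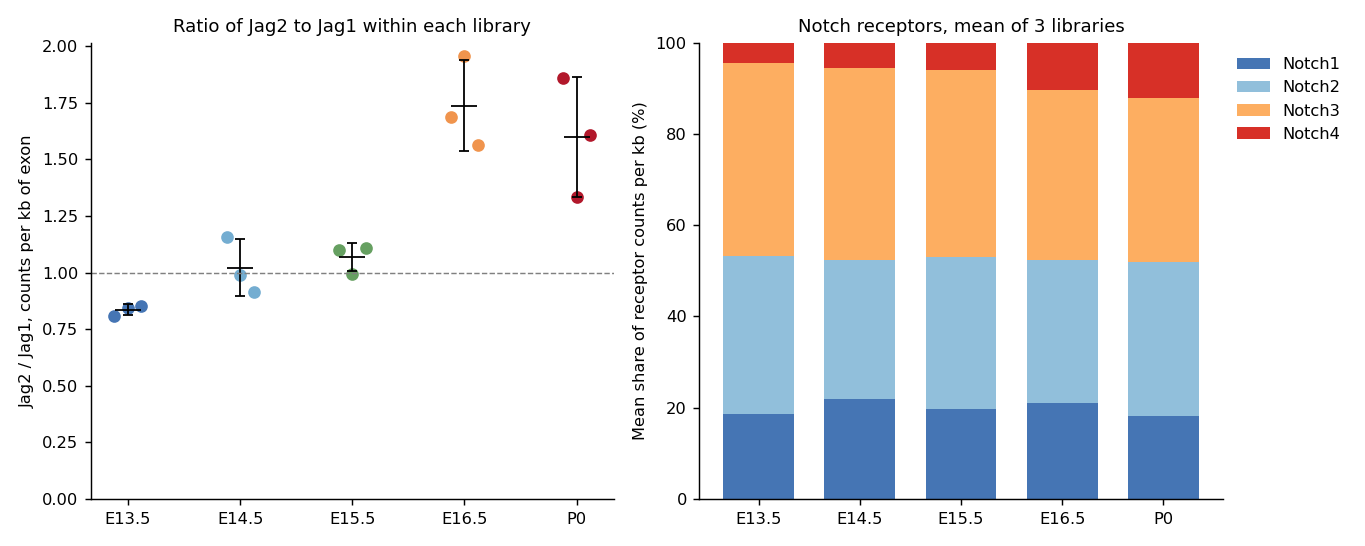
Left, the ratio of *Jag2* to *Jag1* counts per kilobase of exon in each library (points; bars are mean ± SD, the dashed line is a ratio of 1) at the 5 stages. Right, mean share in percent of the 4 Notch receptors in their summed counts per kilobase. The ratio is below 1 in all E13.5 libraries and above 1.3 in all E16.5 and P0 libraries, and the *Notch4* share is 4.39% at E13.5 and 12.02% at P0.

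*Dll1* (ENSMUSG00000014773.13, chr17:15367354-15376872, minus strand, with the non-coding *A930024N18Rik* on the opposite strand) encodes the Delta ligand of neural progenitors, somites and other tissues. Its E13.5 libraries spread widely, with an SD of 22.3 CPM around a mean of 28.8 CPM. It was 24.0, 53.1 and 9.37 CPM at E13.5, 35.1, 23.6 and 18.03 at E14.5, and 14.3, 8.005 and 8.36 at E15.5. The 6 libraries of E16.5 and P0 lay between 10.3 and 12.8 CPM. *Dll1* fell from E13.5 to P0 by 1.30 on the log2 scale (SE 0.47, edgeR adjusted p = 0.0317), although E13.5 replicate 3 was below all 3 P0 libraries. Without E13.5 replicate 2 the log2 fold change was -0.53 with an adjusted p of 0.277. It also missed the threshold without P0 replicate 1, 2 or 3 (-1.23, -1.32 and -1.28, adjusted p = 0.0856, 0.0684 and 0.0699), or with the 6 libraries alone (adjusted p = 0.102). The step from E14.5 to E15.5 separated the libraries, with a log2 fold change of -1.32 (SE 0.47), and missed by edgeR (adjusted p = 0.0548). It passed by DESeq2 (adjusted p = 0.0245), with the 6 libraries alone (edgeR adjusted p = 0.0311), without E14.5 replicate 3 (-1.53, adjusted p = 0.0472) and without E15.5 replicate 1 (-1.65, adjusted p = 0.0447). Without any 1 of the 4 other libraries it missed, at -1.39 to -1.04 and edgeR adjusted p of 0.0979 to 0.205, the weakest without E14.5 replicate 1. From E13.5 to E14.5 it was -0.17 with all libraries, 0.62 without E13.5 replicate 2 and 0.03 without E14.5 replicate 3. Over 5 stages *Dll1* passed (edgeR adjusted p = 0.0265), but not without E14.5 replicate 1, E15.5 replicate 2 or 3, E16.5 replicate 1 or P0 replicate 1 (0.0501 to 0.0530).

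The 5 libraries with the most *Dll1* were also the 5 with the highest sum of neural markers. *Sox1*, a transcription factor of neural progenitors and a marker of that list, ranked these 5 libraries in the order of *Dll1*. It ran from 57.1 CPM in E13.5 replicate 2 to 11.5 CPM in E14.5 replicate 3. The sum of the 8 markers did not keep this order, with ranks of 3, 1, 5, 2 and 4 along it. In E13.5 replicate 3, with 9.37 CPM of *Dll1*, *Sox1* was 1.17 CPM. *Hes5*, the target of Notch in neural progenitors, and *Dll3*, a Delta relative that acts inside the cell, had the same 5 libraries on top. *Hes5* was 9.19, 37.5 and 2.18 CPM at E13.5, 27.0, 13.8 and 9.14 at E14.5, and 1.07 to 4.13 in the 9 later libraries. *Dll3* was 8.93, 20.003 and 2.50 CPM at E13.5, 18.8, 9.76 and 5.06 at E14.5, and 0.518 to 2.55 later. Of the 8 neural markers, 2 were lower at E15.5 than at E14.5 and 4 were lower at P0 than at E13.5, with the others not passing. Over all tested genes 13.4% and 26.8% were lower in these contrasts. In P0 replicate 1 *Sox1* and *Neurog2* had no count, and in E16.5 replicate 1 *Neurog2* had none, and *Dll1* was 11.01 and 10.3 CPM there. The part of neural RNA in the *Dll1* differences was not tested.

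**Figure D4:**
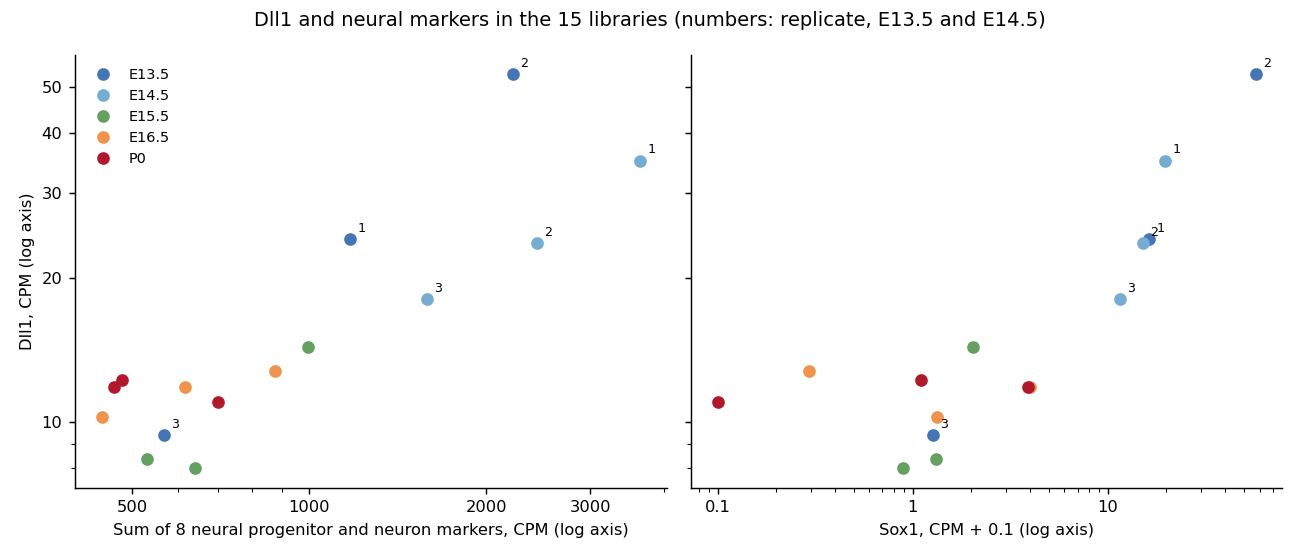
*Dll1* (vertical axis, CPM, log scale) in the 15 libraries against the sum of 8 neural progenitor and neuron markers (left) and against *Sox1* with 0.1 CPM added (right), both in CPM on log axes. Colours are stages, and numbers are replicates of E13.5 and E14.5. The 5 libraries above 15 CPM of *Dll1* lie to the right in both panels, and E13.5 replicate 3 lies among the later stages.

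*Dll4* (ENSMUSG00000027314.6, chr2:119325784-119335962, plus strand, with *Gm14207* on the opposite strand) encodes the ligand of arterial and sprouting endothelium. Of the 4 ligands it had the lowest mean per kilobase at E13.5 and E14.5, and its mean was above that of *Dll1* from E15.5. Its level was 10.8, 12.6 and 10.7 CPM at E13.5, 11.2, 11.4 and 10.6 at E14.5, and 13.97, 13.01 and 11.96 at E15.5. It was 19.8, 12.8 and 11.99 CPM at E16.5 and 15.7, 14.5 and 13.7 at P0. All P0 libraries were above all E13.5 libraries, yet the log2 fold change of 0.37 (SE 0.18) did not pass (edgeR adjusted p = 0.101). E16.5 replicate 1 stood alone, and it also had the highest sum of 8 endothelial markers, 841 CPM against 344 to 759 CPM in the other 14 libraries. In the sum of 5 arterial markers, at 179 CPM, it was below E16.5 replicate 3 at 201 CPM and P0 replicate 1 at 184 CPM. The test over the 5 stages missed with it (edgeR adjusted p = 0.141) and passed without it (0.0418) and by DESeq2 (0.0439).

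*Notch1* (ENSMUSG00000026923.15, chr2:26457903-26516663, minus strand) overlaps *Mir6996* on its own strand and *0610009E02Rik* and *Gm13568* on the other. The receptor is broadly expressed and is needed for arteries and somites. Its stage means were 148 ± 42.9 CPM (SD, n = 3) at E13.5, then 142 ± 25.4, 124 ± 10.6, 112 ± 15.7 and 83.4 ± 1.83 CPM. The E13.5 libraries held 134.7, 197 and 114 CPM, and the P0 libraries 84.8, 84.1 and 81.4 CPM. All 3 P0 libraries were below all of the other 12. The fall from E13.5 to P0 (log2 fold change -0.83, SE 0.19, adjusted p = 0.00265) passed whichever of its 6 libraries was left out, with -0.58 the smallest change, without E13.5 replicate 2. E13.5 replicate 2 and E14.5 replicate 1, the libraries with the most *Dll1*, also had the most *Notch1*, and without both the change was -0.58. The test over 5 stages (edgeR adjusted p = 0.0151) missed without P0 replicate 1 (0.0508) or P0 replicate 3 (0.0544).

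*Notch2* (ENSMUSG00000027878.11, chr3:98013527-98150361, plus strand, overlapping the unconfirmed gene models *Gm42819* and *Gm42820* on its own strand) is the receptor linked to Hajdu-Cheney syndrome, a disease of bone. It was 246, 169.8 and 216 CPM at E13.5, 126, 153 and 169 at E14.5, and 147, 173 and 158 at E15.5. At E16.5 it was 93.3, 123 and 173 CPM and at P0 96.9, 113 and 142. The P0 libraries were all below the E13.5 libraries, while E16.5 spread across both. The fall to P0 was -0.84 on the log2 scale (SE 0.22, edgeR adjusted p = 0.00606) and also passed whichever of the 6 libraries was left out, at -0.99 to -0.69. The step to E14.5 was -0.50, with the libraries apart but no pass (edgeR adjusted p = 0.295). The test over 5 stages (edgeR adjusted p = 0.0334) missed with upper-quartile scaling (0.0628) and without E13.5 replicate 1 or 3 (0.127, 0.0861), E16.5 replicate 2 (0.0531) or P0 replicate 1 or 2 (0.0862, 0.0868).

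*Notch2* exceeded *Notch1* per kilobase in 14 of the 15 libraries. The exception was E14.5 replicate 1, at a ratio of 0.984, and the next lowest was E13.5 replicate 2 at 1.14, the libraries with the highest neural sums of their stages. Elsewhere the ratio was 1.30 to 2.50. The order rests on the exon lengths used, 14232 bases for *Notch1* and 10782 for *Notch2*. Before division by length *Notch1* had more counts in E13.5 replicate 2 (13955 against 12054) and E14.5 replicate 1 (10828 against 8076). It also had more in E16.5 replicate 1 (4376 against 4323), and *Notch2* had more in every other library. The ratio did not differ beyond the spread between E13.5 and P0 (log2 difference -0.05, two-sided exact permutation p = 0.8, with 0.1 the smallest possible). *Notch3*, the receptor of vascular mural cells, held the largest mean share of the receptor counts per kilobase at every stage, 42.3% ± 1.06 (SD, n = 3) at E13.5 and 36.0% ± 4.09 at P0. Its libraries overlapped those of *Notch2* at E16.5 (33.5 to 39.9% against 25.3 to 38.8%) and at P0 (31.8 to 39.9% against 29.7 to 40.7%). *Notch4*, the receptor of endothelium, held 4.39% ± 0.0770 at E13.5 and 12.02% ± 2.16 at P0, without overlap. In CPM *Notch3* fell (-1.03, SE 0.13, edgeR adjusted p = 3.88e-05) and *Notch4* rose (0.64, SE 0.20, edgeR adjusted p = 0.0165). So 3 of the 4 receptors fell and *Notch4* alone rose. Of the 8 endothelial markers 5 rose from E13.5 to P0, with summed levels of 344 to 456 CPM and then 516 to 759 CPM, and *Notch4* was highest, at 42.6 CPM, in E16.5 replicate 1. Of the 8 mural cell markers 7 rose and 0 fell by edgeR, with summed levels of 303 to 429 CPM and then 733 to 846 CPM, while *Notch3* fell. Over all tested genes 29.8% rose and 26.8% fell from E13.5 to P0. The part of endothelial RNA in the *Notch4* rise, and that of mural RNA in the *Notch3* fall, was not tested.

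*Heyl* (ENSMUSG00000032744.4, chr4:123233556-123249875, plus strand), a target known from vascular smooth muscle and pericytes, was the member that passed from E14.5 to E15.5. Its level was 33.3, 22.9 and 27.3 CPM at E13.5 and 22.3, 32.9 and 31.8 at E14.5, then 53.5, 42.4 and 38.9 at E15.5 and 51.9, 47.1 and 43.1 at E16.5. At P0 it was 37.1, 43.1 and 28.0 CPM. The 6 libraries of E15.5 and E16.5 were above the 6 of the first 2 stages, and P0 overlapped both. The rise from E14.5 to E15.5 was 0.63 (SE 0.20, edgeR adjusted p = 0.0391). Leaving out any 1 of the 6 libraries took the edgeR adjusted p above 0.05 (0.0520 to 0.175), at log2 fold changes of 0.46 to 0.72, the lowest without E14.5 replicate 1. With the 6 libraries alone the adjusted p was 0.0635. From E13.5 to P0 *Heyl* was 0.37 higher on the log2 scale and did not pass (edgeR adjusted p = 0.134), nor without E13.5 replicate 2 (0.24, adjusted p = 0.389) or P0 replicate 2 (0.25, adjusted p = 0.371). It passed without P0 replicate 3 (0.56, adjusted p = 0.0425). The test over 5 stages passed in all 15 fits that left out 1 library, at adjusted p of 0.00775 to 0.0351, but not without both E13.5 replicate 2 and E14.5 replicate 1 (0.0599). Markers of arterial endothelium summed to 94.1 to 105.2 CPM at E14.5 and 157.5 to 165 CPM at E15.5, and those of mural cells to 294 to 495 and 554 to 631 CPM. Of these lists 2 of 5 and 0 of 8 genes passed at that step by edgeR, with 2 mural genes at an unadjusted p under 0.05. Over all 22151 genes 26.1% passed there, and 8783 had an unadjusted p under 0.05. The part of arterial and mural cells in the *Heyl* rise was not tested.

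*Hes1* (ENSMUSG00000022528.8, chr16:30064384-30067796, plus strand), the general Notch target and a repressor of differentiation, did not pass in any contrast. Its stage means ran from 27.8 ± 6.14 CPM at E14.5 to 34.2 ± 4.39 at E15.5 (SD, n = 3), and all 15 libraries lay between 21.6 and 39.1 CPM. The log2 fold change from E13.5 to P0 was 0.02 (edgeR adjusted p = 0.920), and the test over 5 stages missed too (0.483). The E14.5 to E15.5 difference of 0.30 (edgeR adjusted p = 0.167) was 0.14 without E14.5 replicate 1 (adjusted p = 0.564), 0.19 without E15.5 replicate 3 (adjusted p = 0.478) and 0.45 without E14.5 replicate 3, where it passed (adjusted p = 0.0454).

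*Hey1* (ENSMUSG00000040289.8, chr3:8663359-8667256, minus strand), a target in endothelium and bone, had the tightest E13.5 libraries of the targets, 42.5, 41.9 and 43.6 CPM. It was 37.4, 38.2 and 40.7 CPM at E14.5. At E15.5 it spread over 31.8, 52.3 and 59.9 CPM, and after 27.8, 30.9 and 31.5 at E16.5 it spread again over 26.4, 29.2 and 50.7 at P0. The E16.5 libraries were all below those of E15.5, with a log2 fold change of -0.67 (edgeR adjusted p = 0.140). From E13.5 to P0 it was -0.27 (edgeR adjusted p = 0.358), -0.59 without P0 replicate 3 (adjusted p = 0.0324), -0.06 without P0 replicate 1 (adjusted p = 0.855) and -0.12 without P0 replicate 2 (adjusted p = 0.724). The test over 5 stages missed with all libraries (edgeR adjusted p = 0.164) and passed without P0 replicate 3 (0.0218) or E15.5 replicate 1 (0.0311).

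*Hey2* (ENSMUSG00000019789.9, chr10:30832359-30842801, minus strand), known from heart and arteries, had the lowest mean of the targets per kilobase at every stage. It was 11.2, 13.3 and 21.9 CPM at E13.5, 13.3, 17.03 and 13.3 at E14.5, and 28.1, 17.1 and 16.01 at E15.5. It then held 8.37, 18.4 and 10.2 CPM at E16.5 and 11.3, 7.26 and 7.75 at P0. Libraries of E13.5 and P0 overlapped by a narrow margin, since 1 P0 library was above the lowest E13.5 library. The difference of -0.82 (SE 0.34) did not pass by edgeR (adjusted p = 0.0570) and passed by DESeq2 (adjusted p = 0.0392) and in edgeR without E13.5 replicate 1 (-1.01, adjusted p = 0.0402) or P0 replicate 1 (-1.01, adjusted p = 0.0439). Without E13.5 replicate 3 it was -0.50 (adjusted p = 0.245). The test over 5 stages missed (edgeR adjusted p = 0.0694) and passed without E16.5 replicate 2 (0.0213).

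The other genes of the pathway were taken from a list of 46, of which *Hes3* was too low to test. Of 45 tested genes, 0 passed from E13.5 to E14.5 by edgeR (9 at an unadjusted p under 0.05, 4 by DESeq2) and 12 from E14.5 to E15.5, 2 higher and 10 lower. From E15.5 to E16.5 0 passed by edgeR (12 unadjusted, 4 by DESeq2), from E16.5 to P0 0 (5 unadjusted, 0 by DESeq2), and from E13.5 to P0 28, 10 higher and 18 lower. These were 26.7% of the list at E15.5, against 26.1% of all genes, and 62.2% at P0, against 56.6%. The list's median log2 fold change was -0.20 from E14.5 to E15.5 and -0.30 from E13.5 to P0, against 0.03 over all genes in both. With upper-quartile scaling, which moved the median of all genes at the E15.5 step to 0.16, 4 genes were higher and 7 lower there. The 12 calls became 4 without E14.5 replicate 1 and 7 without E15.5 replicate 2 or 3.

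The 5 deepest falls of the list at E15.5 were these. *Dll3* fell by 2.74 on the log2 scale (SE 0.68), *Hes5* by 2.62 (SE 0.77), *Dner*, a neuronal Notch ligand, by 2.47 (SE 0.57), *Dtx1*, a ubiquitin ligase that binds Notch, by 2.17 (SE 0.44), and its relative *Dtx4* by 1.10 (SE 0.26). *Dner* was 61.7, 118 and 22.7 CPM at E13.5, 329, 204 and 126 at E14.5, and 59.3, 33.9 and 26.0 at E15.5. *Dtx1* was 116, 82.6 and 50.3 CPM at E14.5 and 11.4, 23.8 and 20.1 at E15.5. Within E14.5 all 5 genes were highest in replicate 1 and lowest in replicate 3, the order of the neural sums of 3645, 2434 and 1585 CPM. At E15.5 these sums were 997, 639 and 530 CPM, and *Dner* had the same order. There *Dtx1* and *Dll3* were lowest in replicate 1, and *Hes5* was highest in replicate 2. The part of neural RNA in these falls was not tested. Without E14.5 replicate 1, 2 of the 5 stayed past the threshold, *Dner* (-2.06, edgeR adjusted p = 0.0472) and *Dtx1* (-1.86, adjusted p = 0.0265), while *Dll3* (-2.15, adjusted p = 0.0644), *Hes5* (-2.09, adjusted p = 0.115) and *Dtx4* (-0.86, adjusted p = 0.0588) did not. *Dll3* also missed without E15.5 replicate 3 (0.0503), and *Hes5* without E14.5 replicate 2 (0.0514) or E15.5 replicate 1, 2 or 3 (0.0627, 0.0768, 0.0903). The rises were *Psen2* (0.75, SE 0.16, edgeR adjusted p = 0.00612) and *Hes2* (3.88, SE 0.84, edgeR adjusted p = 0.00687). *Hes2* was low throughout, at 0.910, 2.00 and 2.69 CPM at E15.5 and at most 0.845 CPM in every other library.

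**Figure D5:**
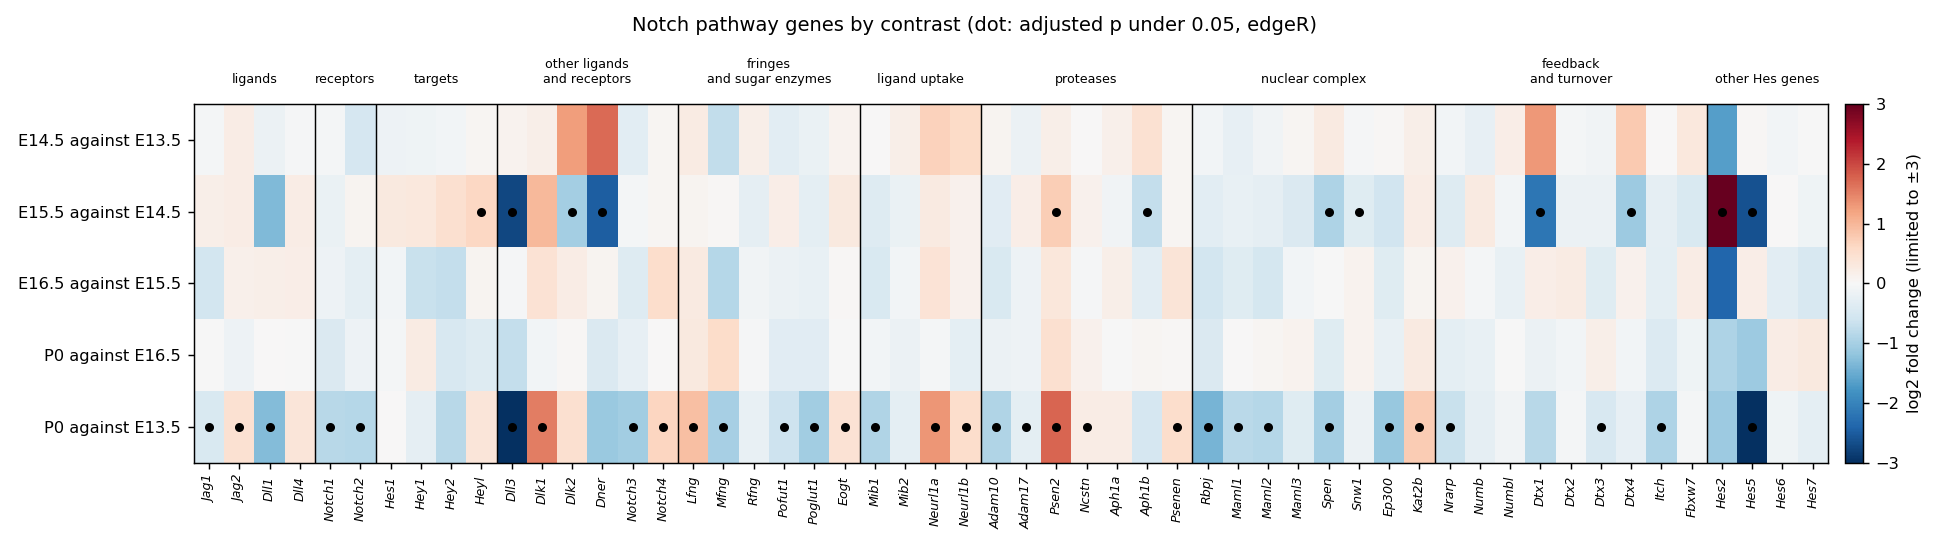
Log2 fold change (colour, limited to ±3) of the 10 members and other tested pathway genes (columns, grouped by role) in the 5 contrasts (rows). Dots mark an adjusted p under 0.05 in edgeR. In P0 against E13.5 the nuclear complex has 5 falls and 1 rise among 8 genes, against 26.8% falls and 29.8% rises over all tested genes.

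From E13.5 to P0, 5 of the 8 genes of the nuclear complex fell and 1 rose, where 26.8% of all tested genes fell and 29.8% rose. Their median log2 fold change was -0.83. *Rbpj*, the DNA-binding partner of Notch, was 118, 126 and 104 CPM at E13.5 and 109.5 ± 6.51 at E14.5, 88.6 ± 1.42 at E15.5 and 59.99 ± 10.46 at E16.5 (SD, n = 3). At P0 it was 39.5, 50.6 and 42.8 CPM. The stages from E15.5 to P0 did not overlap one another except for E16.5 and P0, and the change of -1.39 (SE 0.14, edgeR adjusted p = 1.01e-05) lay between -1.47 and -1.27 in the fits without 1 library. The coactivator gene *Ep300* fell by 1.13 (SE 0.22), *Spen*, a corepressor, by 1.02 (SE 0.23), and the Mastermind genes *Maml1* and *Maml2* by 0.81 (SE 0.14) and 0.85 (SE 0.17). *Kat2b*, an acetyltransferase, rose by 0.76 (SE 0.22, edgeR adjusted p = 0.0116), with P0 libraries at 20.2, 43.4 and 27.5 CPM that overlapped E13.5. It was 0.43 without P0 replicate 2, and missed the threshold with only the 6 libraries of the contrast (edgeR adjusted p = 0.0676).

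Among the protease genes, *Psen2*, which encodes a catalytic subunit of gamma-secretase, rose by 1.75 (SE 0.16, edgeR adjusted p = 6.96e-06), from 9.89, 9.80 and 11.9 CPM at E13.5 through 20.1 ± 1.35 at E15.5 to 33.2, 35.8 and 37.4 at P0. *Adam10*, the first protease to cut the bound receptor, fell by 0.89 (SE 0.14), and its relative *Adam17* by 0.29 (SE 0.11). The gamma-secretase subunit genes *Ncstn* and *Psenen* rose by 0.22 (SE 0.08) and 0.54 (SE 0.17). Of the sugar enzymes 2 of 6 rose and 3 fell, where 29.8% of all tested genes rose and 26.8% fell. *Lfng*, a Fringe gene, rose by 0.89 (SE 0.22, edgeR adjusted p = 0.00389), from 17.3, 28.2 and 19.1 CPM to 32.3, 42.0 and 45.9 CPM, and *Poglut1*, which glucosylates the receptor, fell by 1.05 (SE 0.13, edgeR adjusted p = 3.54e-05). *Pofut1*, which adds the fucose that Fringe extends, fell by 0.61 (SE 0.13), and *Eogt*, another sugar transferase, rose by 0.42 (SE 0.16) with libraries that overlapped. The Fringe gene *Mfng* fell by 1.00 (SE 0.39, edgeR adjusted p = 0.0438) with libraries of E13.5 and P0 that overlapped. *Neurl1a*, a ubiquitin ligase that acts on ligands, rose by 1.32 (SE 0.19, edgeR adjusted p = 0.000112), and its relative *Neurl1b* by 0.52 (SE 0.17). *Mib1*, the main ubiquitin ligase of Notch ligands, fell by 0.89 (SE 0.20), and *Mib2* did not pass (-0.30, edgeR adjusted p = 0.120). Of the 9 feedback and turnover genes, *Nrarp*, a Notch-induced inhibitor, fell by 0.67 (SE 0.21), *Dtx3* by 0.49 (SE 0.18) and *Itch*, a ubiquitin ligase of the receptor, by 0.93 (SE 0.18), while 0 rose by edgeR, where the 6 others had negative values and 1 of them an unadjusted p under 0.05. The genes that passed were 33.3% of these 9, against 56.6% of all tested genes, of which 26.8% were lower and 29.8% higher.

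Of the other ligands and receptors, *Dlk1* and *Notch4* rose and *Dll3* and *Notch3* fell. *Dlk1*, a non-canonical ligand of progenitor cells, rose by 1.53 (SE 0.49, edgeR adjusted p = 0.0173), from 478, 300.4 and 385 CPM at E13.5 to 1481, 1440.3 and 437 CPM at P0. P0 replicate 3 lay within the range of E13.5, and the rise missed without E13.5 replicate 2 (1.37, adjusted p = 0.0666), P0 replicate 1 (1.32, adjusted p = 0.0565) or P0 replicate 2 (1.32, adjusted p = 0.0563). *Dll3* fell by 3.41 (SE 0.71, edgeR adjusted p = 0.00149). *Hes5* fell by 3.48 (SE 0.82, edgeR adjusted p = 0.00312), although the lowest E13.5 library, at 2.18 CPM, was below the highest P0 library, at 2.26 CPM. Without E13.5 replicate 2 these changes were -2.54 and -1.97.

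For each member that changed over the 5 stages, the genes whose profile lay nearest were taken from 13538 genes with a mean of at least 5 CPM, by the root-mean-square distance of centred log2 CPM over the 15 libraries. *Jag1* lay nearest to *Sertad2* (distance 0.11, against a spread of 0.28 of *Jag1* itself) and *Mfsd14b* (0.11). *Jag2* lay nearest to *Eef2k* and *Osbpl5* (0.14 and 0.15, own spread 0.25). *Notch1* lay nearest to *R3hdm1* and *Scrib* (0.16 for both, own spread 0.35). *Notch2* lay nearest to *Fzd1*, a Wnt receptor, and *Flna*, an actin crosslinker (0.13 for both, own spread 0.38). *Heyl* lay nearest to *Wfs1* and *Dlc1* (0.14 and 0.16, own spread 0.38). *Dll1* lay nearest to *Adgrg1* (0.25, own spread 0.76) and *Tox2* (0.29). None of these 12 neighbours was among the 10 members or the 46 other pathway genes. Those are so few beside the 13538 genes compared that their absence says nothing about shared profiles.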

How the data were processed

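Gene counts of 15 libraries were deposited by the authors as raw counts of read pairs, made with featureCounts 2.0.1 on the reverse strand against GENCODE M18, per the file headers. The submitters' processing notes list the build mm10, cutadapt 3.4, FastQC 0.11.9, Bowtie2, HISAT2 2.2.1, SAMtools 1.12 and Subread 2.0.1. Counts were tested here with edgeR 4.0.16 (R 4.3.3): filterByExpr with a minimum count of 10, TMM scaling, and the quasi-likelihood test with 1 mean per stage over 15 libraries. Benjamini-Hochberg adjustment ran over the 22151 genes that passed, with a threshold of 0.05. The script was tested on simulated data. CPM and RPKM were computed here. Alternatives were DESeq2 1.42.0, other scalings, no filter, the 6 libraries of a contrast alone, a replicate block and leaving out each library. Leaving out both E13.5 replicate 2 and E14.5 replicate 1 was added after seeing the data.

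Members and gene lists were chosen with earlier results of these data known. Of the other pathway genes, the text names the 5 largest rises and 5 largest falls per contrast among those that passed, and *Notch3*, *Notch4* and *Dll3*. *Spen*, *Maml1*, *Maml2*, *Adam10*, *Adam17*, *Ncstn*, *Psenen*, *Pofut1*, *Eogt*, *Mfng*, *Neurl1b*, *Mib1*, *Mib2*, *Nrarp*, *Dtx3* and *Itch* were named after their values were seen, to complete counts. The profile distance used log2 CPM with a prior count of 2. The result of 1 pathway gene is not reported here.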

Additional observations from a re-analysis of the deposited data

How the results depend on the processing

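The 5 called members kept their direction from E13.5 to P0 under every scaling. Of other pathway genes from E13.5 to E14.5, 0 passed by edgeR, 4 by DESeq2, 1 with the replicate block and 0 to 1 without 1 library. Of members from E14.5 to E15.5, 1 passed, against 2 by DESeq2, 0 with the replicate block, 0 without both E13.5 replicate 2 and E14.5 replicate 1, and 0 to 2 without 1 library. Of other pathway genes there, 12 passed, against 7 without both libraries and 4 to 14 without 1. From E15.5 to E16.5 0 members passed and 1 by DESeq2, and 0 other genes passed, against 4 by DESeq2, 1 with upper-quartile scaling and 0 to 1 without 1 library. From E13.5 to P0 5 members passed, against 3 in a fit of the 6 libraries alone, 3 without both libraries and 3 to 6 without 1 (3 without E13.5 replicate 2), and 28 other genes, against 19 to 26 without 1 library. Over the 5 stages 6 members passed, against 3 without both libraries and 3 to 7 without 1 (3 without P0 replicate 1). Without both libraries the signs of members that did not pass changed from E13.5 to E14.5 for *Dll1* (0.32), *Dll4* (0.037) and *Notch1* (0.048), from E14.5 to E15.5 for *Notch2* (-0.026), and from E13.5 to P0 for *Hes1* (-0.024). Upper-quartile scaling turned *Heyl* at E14.5 (-0.011) and, from E16.5 to P0, *Jag1* (0.026) and *Dll4* (0.015). The 6 libraries alone turned the latter 2 too (0.018 and 0.013), and no filter turned *Dll1* (-0.032). Without 1 library, uncalled log2 fold changes that crossed 0 ranged from E13.5 to E14.5 over -0.59 to 0.62 for *Dll1*, -0.081 to 0.044 for *Dll4*, -0.22 to 0.19 for *Notch1*, -0.31 to 0.0088 for *Hes1*, -0.27 to 0.24 for *Hey2* and -0.058 to 0.22 for *Heyl*. The range was -0.026 to 0.18 for *Notch2* from E14.5 to E15.5. From E15.5 to E16.5 it was -0.083 to 0.33 for *Dll4*, -0.15 to 0.024 for *Hes1* and -0.019 to 0.22 for *Heyl*. From E16.5 to P0 it was -0.13 to 0.13 for *Jag1*, -0.072 to 0.077 for *Dll1*, -0.16 to 0.24 for *Dll4*, -0.34 to 0.11 for *Notch2*, -0.13 to 0.017 for *Hes1* and -0.12 to 0.41 for *Hey1*. For *Hes1* from E13.5 to P0 it was -0.024 to 0.12. The cause was not tested. The labels tie no replicate number to a litter, batch or day. Correlations of deviations in 15 pairs of same-numbered libraries were -0.303 to 0.548. The 4 over 0.1 were those of replicate 3 between neighbouring stages (0.548, 0.207, 0.203 and 0.472), while the other 11 were -0.303 to 0.0800, so the numbers did not pair the samples by the rule that every pair be over 0.1. With the block *Dll1* from E13.5 to P0 was -1.16 with an edgeR adjusted p of 0.0512, and *Heyl* from E14.5 to E15.5 was 0.61 with 0.0514. It changed the call of no other member or named gene.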
